A study of Homo sapiens with 18 samples.

Results

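The 44 genes described here encode the machinery that copies nuclear DNA and supplies its nucleotides, and they were followed in cells given triptolide, an inhibitor of transcription initiation, with or without etoposide beforehand. They were taken by symbol from a list of DNA replication and nucleotide synthesis genes, by a rule that uses no measured value although the list was chosen with earlier results of these data known, and all 44 were matched among the 58051 gene identifiers of each count file. The cells were hTERT RPE-1, a human retinal pigment epithelial line immortalised with telomerase. Per the labels, they were grown in 10% serum, starved for 48 h in 0.1% serum, treated for 30 min with 50 µM etoposide, a topoisomerase II poison, and then exposed to triptolide at 10 µM, an inhibitor of the initiation factor TFIIH. The sample titles name the other arm DMSO, and each arm was collected at time points 0, 20 and 40, a number whose unit the labels do not state, nor whether triptolide had been added at 0. The 6 groups were therefore DMSO at 0, 20 and 40 and etoposide at 0, 20 and 40, each with 3 libraries numbered 1 to 3. The labels call the replicates independent without saying whether they were separate cultures, so that p-values measure the spread between these libraries.

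Before S phase, the origin recognition complex (ORC1 to ORC6) binds replication origins and, with CDC6 and CDT1, loads the MCM2 to MCM7 helicase, while geminin (GMNN) restrains CDT1. CDC45 and the GINS complex activate the helicase, DNA polymerase alpha with primase starts new strands, and polymerases delta and epsilon extend them on the sliding clamp PCNA, which replication factor C loads. In resting cells E2F target genes, many of these among them, are held down by RB-family proteins, and E2F1 activates them as cells approach S phase.

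Total counts ranged from 7957691 to 11580219 per library (median 10114787.5), and the lowest count of any replication gene in any library was 92. All 44 were among the 14186 genes that passed the filter on low counts. The labels give the cells as G0/G1, yet all 12 of a list of G2 and mitosis genes averaged at least 1 CPM (counts scaled to a fixed library total), with means over all libraries of 407 CPM for TOP2A and 319.6 CPM for MKI67. Of 13 pigment epithelium markers 7 reached a mean of 1 CPM, with KRT8 at 697 CPM, while RPE65, RLBP1, TYR and TYRP1 were below 1 CPM and DCT and TTR had no counts. Of 8 fibroblast markers 5 reached 1 CPM, as did 1 of 4 endothelial markers, PECAM1, and none of 5 markers of other epithelia or of 6 blood markers. Several libraries stood apart. DMSO time point 0 replicate 2 had 1.42% of its counts in antisense genes, against 0.217% to 0.253% in the other libraries, and alone held most counts of BEST1 (2452 CPM, against a median of 5.79 CPM). Libraries of replicate 3 had 0.527% to 0.586% of counts in processed pseudogenes, against 0.15% to 0.191% in replicates 1 and 2. They had no counts of 44 protein-coding genes that averaged above 5 CPM in replicates 1 and 2, none of them a replication gene. Their count columns alone also carry a suffix naming a BAM file, and whether they were processed differently was not tested. Of the replication genes, MCM2 and MCM4 were higher in all replicate 3 libraries than in any other (9.75% of all genes tested were) and 0 were lower in all of them (9.4%). Mean CPM was higher in replicate 3 than in replicates 1 and 2 for 30 of the 44. The ratio of these means ran from 0.849 (RPA3) to 1.43 (RFC3), and no such share was counted over all genes. Etoposide time point 20 replicate 2 had the highest CPM of its 6 same-numbered libraries for 23 of the 44 genes and the fewest detected genes, 17854. DMSO time point 0 replicate 3 was highest of its 6 for 21 of the genes, and DMSO time point 40 replicate 1 was highest for 16 and lowest for 7. At the low end, etoposide time point 0 replicates 1 and 2 were lowest of their 6 for 19 and 14 genes, and DMSO time point 40 replicate 3 for 14.

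Promoter sequences are shown because E2F binding is the best known shared feature of these genes and 20 of them held an E2F-type match near their start. The RefSeq promoter table for GRCh38.p14, which gives 250 bases before and 50 after each annotated start, held 39 of the 44 genes in 49 entries. MCM4, MCM5, GINS4, RPA2 and RPA3 had no entry. The search was for TTTCCCGC, TTTCGCGC, TTTGCCGC and TTTGGCGC on both strands. Of the 39 genes 20 held at least 1 match, against 3.99% of the 27305 genes in the table (20 of 49 entries, against 3.31% of 35116 promoters). CCAAT, on either strand, was in 24 of the 39 genes, against 39.7% of all genes, and TTTGAA, the cell cycle homology region of many mitotic genes, was in RRM1 alone, against 18.2%. Below are 80-base stretches upstream of the start of MCM6 (chr2:135876536-135876615, minus strand), CDT1 (chr16:88803709-88803788, plus strand), PCNA (chr20:5126623-5126702, minus strand), TYMS (chr18:657573-657652, plus strand) and E2F1 (chr20:33686386-33686465, minus strand), read 5′ to 3′ on the strand of the gene. Capitals mark the E2F-type matches; on the opposite strand the words read GCGGGAAA, GCGCGAAA, GCGGCAAA and GCGCCAAA.
MCM6: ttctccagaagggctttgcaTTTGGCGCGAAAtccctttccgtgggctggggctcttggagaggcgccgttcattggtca
CDT1: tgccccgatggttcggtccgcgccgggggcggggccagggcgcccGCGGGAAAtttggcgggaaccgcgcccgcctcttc
PCNA: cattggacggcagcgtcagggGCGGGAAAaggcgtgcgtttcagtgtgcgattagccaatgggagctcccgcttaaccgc
TYMS: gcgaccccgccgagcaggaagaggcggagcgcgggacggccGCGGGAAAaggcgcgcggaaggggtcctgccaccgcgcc
E2F1: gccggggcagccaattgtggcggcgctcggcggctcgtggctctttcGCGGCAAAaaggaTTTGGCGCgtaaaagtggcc
The 2 matches shown for MCM6, of 4 upstream of its start, overlap each other and begin 152 bases before the start, whereas in E2F1, PCNA, TYMS and CDT1 the first match begins 33, 59, 39 and 35 bases before it. A match describes these letters and is no measured binding site. The shares over all genes were not matched for base composition or expression. The median log2 difference at time point 0, etoposide minus DMSO, was -0.12 for the 20 genes with a match and -0.12 for the 19 without.

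At time point 0 with DMSO, the genes spanned a wide range of levels. Levels are compared between genes as CPM per kb of merged exon. PCNA, the sliding clamp (chromosome 20, 5114953 to 5126626, minus strand, GRCh38, GENCODE 29), was highest at 166 ± 9.20 (SD, n = 3), in percentile 98.6 of the 13329 genes with a mean of at least 1 CPM. Next came TYMS, thymidylate synthase, at 79.7 ± 1.86, RRM1 and RRM2, the ribonucleotide reductase subunits, at 67.3 ± 11.1 and 59.9 ± 4.90, the flap endonuclease FEN1 at 66.0 ± 6.02 and the helicase subunit MCM7 at 61.3 ± 1.75 (each SD, n = 3). ORC4 was lowest at 3.17 ± 0.55, in percentile 35.6, below MCM10 at 4.53 ± 1.62 and the polymerase epsilon subunit POLE2 at 4.55 ± 1.26. By role, the medians were 67.3 for the 3 nucleotide synthesis genes, 24.7 for the 5 genes of single-strand binding and Okazaki fragment joining, 16.9 for the 6 of the clamp and its loader, 15.6 for the 12 helicase genes, 13.3 for the 3 licensing genes, 7.94 for the 8 of primase and polymerases and 6.36 for the 6 of the origin recognition complex, with E2F1 alone at 23.0. Of the 44 genes, 39 lay above the median of those 13329 genes. In the order of levels, 39 of the 43 neighbouring pairs overlapped in their library values. The neighbours that did not overlap were PCNA above TYMS, MCM3 above RPA2, RFC2 above RPA1 and E2F1 above MCM5.

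**Figure D1:**
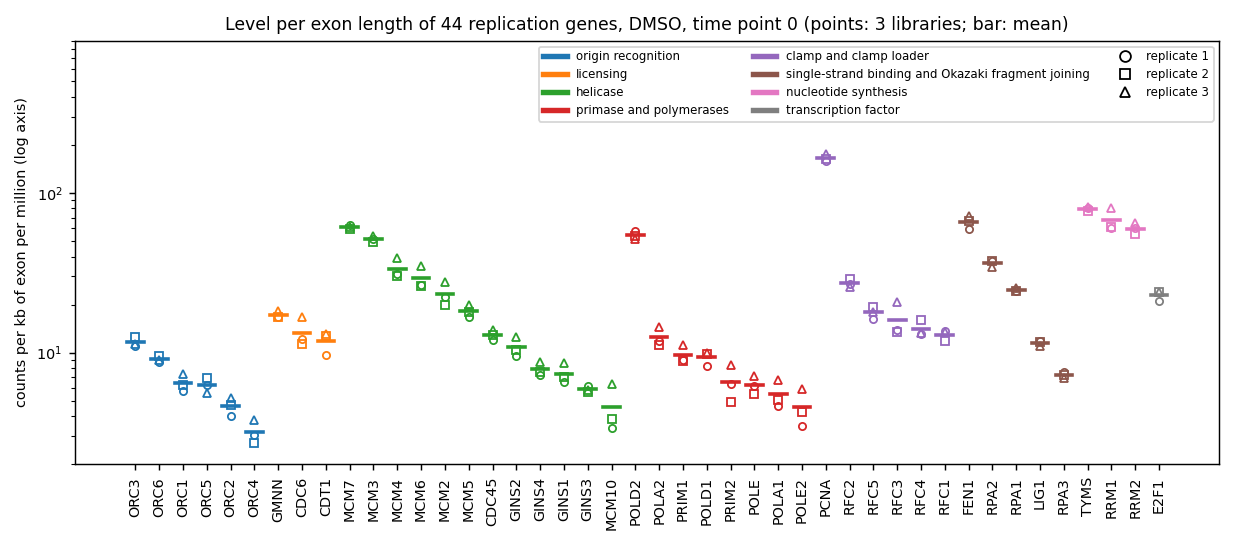
Level per kb of exon (CPM per kb, log axis) of each replication gene in the 3 DMSO libraries of time point 0, with symbols for replicates and a bar for the mean, ordered by level within each role (colours). PCNA stands at 166 and ORC4 at 3.17, and most neighbours overlap.

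Over all 6 groups, the level of each gene moved little. The ratio of the highest to the lowest group mean ranged from 1.05 (RPA2) to 1.36 (ORC5), with a median of 1.16. None of the 44 genes passed the test in any of the 10 comparisons (edgeR quasi-likelihood test, Benjamini-Hochberg adjustment over the 14186 genes), and limma-voom and DESeq2 also called 0 in each. Over all genes, edgeR called 0% in 8 of the comparisons. The 10 comparisons set etoposide against DMSO at 0, 20, 40 and on average. They also set 20 and 40 against 0 within an arm, and tested whether those changes differed between arms. The precision was enough to bound these changes, in a fit that took no account of the replicate numbers. With standard errors of 0.09 to 0.25 on the log2 scale in the comparisons of 2 groups, the 95% interval lay within -1 and 1 for 44 of 44 genes from 0 to 40 with DMSO, against 72.9% of all genes, and for 44 of 44 with etoposide, against 73.4%. It lay within -0.5 and 0.5 for 32 (33.3% of all genes) and 31 (33.9%) of them. The shares of all genes were not matched for level, while every replication gene had at least 92 counts in each library. Values are relative to the rest of each library's RNA, so a loss shared by all RNA does not show, and in bulk RNA fewer cells of a type and less RNA per cell cannot be told apart.

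The origin recognition complex marks origins. ORC3 had the highest mean CPM of its 6 genes and ORC1 the lowest. ORC3 libraries in replicate order held, with DMSO, 40.6, 46.0 and 41.9 CPM at time point 0, 38.6, 37.2 and 39.7 CPM at 20, and 46.1, 40.2 and 41.6 CPM at 40. With etoposide they held 46.3, 41.6 and 46.5 CPM at time point 0, 40.2, 51.3 and 41.3 CPM at 20, and 36.2, 42.6 and 46.0 CPM at 40. Only at time point 20 did the arms not overlap, ORC3 being higher with etoposide (1.34% of all genes were; log2 0.19, SE 0.12, edgeR adjusted p = 1; 0.08 without etoposide replicate 2). ORC1, the subunit that recruits CDC6, was at 18.1, 19.8 and 23.2 CPM at time point 0, 22.3, 21.1 and 18.7 CPM at 20, and 13.9, 20.2 and 16.8 CPM at 40 with DMSO. With etoposide it was at 15.1, 22.1 and 18.1 CPM at time point 0, 19.5, 21.7 and 21.6 CPM at 20, and 19.2, 19.1 and 19.8 CPM at 40, and the arms overlapped at 0, 20 and 40. ORC5 was at 23.4, 25.8 and 20.8 CPM at time point 0, 18.9, 19.2 and 20.5 CPM at 20, and 31.1, 17.4 and 22.0 CPM at 40 with DMSO and at 18.4, 18.9 and 20.2 CPM at time point 0, 17.4, 24.8 and 18.4 CPM at 20, and 15.3, 18.1 and 18.7 CPM at 40 with etoposide. At time point 40 the DMSO value of replicate 1, 31.1 CPM, stood above the rest, and the log2 difference was -0.45 (SE 0.19, 95% interval -0.85 to -0.05, edgeR adjusted p = 1), or -0.18 without that library. All ORC5 libraries with etoposide at time point 0 lay below those with DMSO (2.34% of all genes). ORC5 and ORC3 were lower at 20 than at 0 with DMSO without overlap (1.52% of all genes).

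Among the licensing genes, CDC6 loads the helicase together with CDT1. CDC6 was measured at 67.6, 62.5 and 92.3 CPM at time point 0, 64.8, 64.3 and 77.5 CPM at 20, and 65.3, 66.1 and 72.9 CPM at 40 with DMSO. In the etoposide arm it was at 58.6, 53.9 and 79.8 CPM at time point 0, 60.1, 74.1 and 74.3 CPM at 20, and 67.3, 62.2 and 79.9 CPM at 40. Replicate 3 was highest in both arms at 0, and the groups overlapped. CDT1 libraries gave 32.0, 42.6 and 43.5 CPM at time point 0, 29.9, 39.4 and 43.7 CPM at 20, and 25.3, 28.5 and 36.6 CPM at 40 with DMSO. With etoposide CDT1 stood at 28.6, 35.1 and 41.0 CPM at time point 0, 33.2, 27.0 and 44.7 CPM at 20, and 29.6, 32.6 and 38.5 CPM at 40. Within each replicate number CDT1 was lower at 40 than at 0 with DMSO (15.6% of all genes), but the spread between numbers made the groups overlap. GMNN, the inhibitor of CDT1, was at 41.3, 41.7 and 45.2 CPM at time point 0, 38.0, 44.6 and 43.7 CPM at 20, and 47.6, 40.9 and 36.6 CPM at 40 with DMSO. Its etoposide libraries were at 37.3, 34.9 and 39.5 CPM at time point 0, 36.9, 54.2 and 41.7 CPM at 20, and 31.1, 38.1 and 36.1 CPM at 40. All GMNN values with etoposide at 0 lay below those with DMSO (2.34% of all genes), and replicate 2 at 20 was the highest of all 18.

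The MCM2 to MCM7 helicase and its activators CDC45, MCM10 and GINS made up 12 of the genes. MCM7 had the highest mean CPM, with 277, 262 and 268 CPM at time point 0, 289.7, 309.9 and 260.5 CPM at 20, and 247, 285 and 259 CPM at 40 in the DMSO arm. The etoposide libraries were at 261, 258 and 253 CPM at time point 0, 287, 284 and 268 CPM at 20, and 272, 270.2 and 257 CPM at 40. MCM7 was lower with etoposide at 0 without overlap (2.34% of all genes), by a narrow gap. It was higher at 20 than at 0 within the etoposide arm without overlap (1.18%), with a log2 change of 0.13. MCM10, which joins the helicase as it fires, was the least abundant by CPM, at 18.3, 21.0 and 34.8 CPM at time point 0, 25.4, 23.2 and 29.4 CPM at 20, and 21.9, 21.4 and 27.1 CPM at 40 with DMSO. With etoposide MCM10 gave 17.9, 25.6 and 29.5 CPM at time point 0, 22.0, 36.6 and 26.6 CPM at 20, and 20.6, 26.8 and 27.9 CPM at 40, and its arms overlapped throughout. GINS3 was at 31.4, 29.1 and 29.6 CPM at time point 0, 38.8, 27.9 and 29.5 CPM at 20, and 37.0, 34.0 and 31.5 CPM at 40 with DMSO. At 40 the etoposide libraries of GINS3 lay below the DMSO libraries without overlap (1.51% of all genes), its etoposide values being 28.3, 30.6 and 32.8 CPM at time point 0, 31.4, 36.8 and 30.7 CPM at 20, and 29.1, 26.9 and 28.1 CPM at 40. The log2 difference at 40 was -0.29 (SE 0.13, 95% interval -0.57 to -0.01, edgeR adjusted p = 1). GINS4 was at 39.7, 41.2 and 47.8 CPM at time point 0, 42.9, 39.0 and 52.0 CPM at 20, and 47.7, 52.0 and 52.2 CPM at 40 with DMSO and at 41.0, 42.4 and 53.2 CPM at time point 0, 41.3, 51.0 and 53.2 CPM at 20, and 46.9, 49.2 and 60.6 CPM at 40 with etoposide. Within every replicate number GINS4 was higher at 40 than at 0 with DMSO (11.5% of all genes) and with etoposide (13.7%), while the groups overlapped.

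Primase and the polymerases start and extend the new strands. POLD2, the accessory subunit of polymerase delta, was the most abundant, at 213, 199.6 and 191 CPM at time point 0, 204, 226 and 208 CPM at 20, and 197, 200.1 and 190.5 CPM at 40 with DMSO. In the other arm POLD2 was at 212, 181 and 185 CPM at time point 0, 215, 167 and 203 CPM at 20, and 221, 195 and 194 CPM at 40, and the groups overlapped at each time point. POLD1 was at 40.6, 48.4 and 49.2 CPM at time point 0, 42.0, 47.0 and 52.1 CPM at 20, and 32.8, 38.9 and 50.3 CPM at 40 with DMSO. With etoposide POLD1 was at 31.0, 29.1 and 45.2 CPM at time point 0, 37.3, 28.4 and 53.9 CPM at 20, and 42.0, 39.3 and 53.3 CPM at 40. Replicate 3 was the highest in each of the 6 groups. Within each number POLD1 was lower with etoposide than with DMSO at 0 (14.8% of all genes) and higher at 40. No such share was counted at 40. POLE2 had the lowest counts of all 44, at 10.3, 12.4 and 17.6 CPM at time point 0, 11.6, 13.6 and 13.6 CPM at 20, and 11.9, 10.1 and 11.3 CPM at 40 with DMSO. Its etoposide libraries gave 13.0, 11.5 and 14.2 CPM at time point 0, 10.9, 13.5 and 14.2 CPM at 20, and 10.1, 9.54 and 15.5 CPM at 40. POLE2 libraries ran from 9.54 to 17.6 CPM, with overlap between all groups of an arm.

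The clamp PCNA holds polymerases on DNA and the RFC complex places it there. PCNA was at 232, 239.8 and 258 CPM at time point 0, 219, 233 and 234 CPM at 20, and 247, 216 and 209 CPM at 40 with DMSO. With etoposide PCNA was at 208, 208 and 232 CPM at time point 0, 222, 296 and 234 CPM at 20, and 204, 245 and 221 CPM at 40. At 0 the lowest DMSO library and the highest etoposide library were nearly equal, and at 20 the etoposide value of replicate 2 was the highest of all 18. RFC2 was at 59.4, 64.0 and 56.7 CPM at time point 0, 55.6, 66.9 and 56.8 CPM at 20, and 56.8, 57.1 and 51.4 CPM at 40 with DMSO. Its etoposide libraries were at 47.0, 53.0 and 47.9 CPM at time point 0, 54.1, 62.3 and 52.4 CPM at 20, and 54.6, 59.0 and 53.9 CPM at 40. RFC2 was below every DMSO library in every etoposide library of time point 0 (2.34% of all genes), and the arms overlapped at 20 and 40. RFC4 had the lowest mean CPM of the group, at 39.1, 47.8 and 39.8 CPM at time point 0, 35.9, 42.3 and 39.4 CPM at 20, and 38.9, 32.2 and 40.1 CPM at 40 with DMSO. The etoposide arm of RFC4 gave 37.1, 37.9 and 40.7 CPM at time point 0, 36.0, 47.4 and 37.1 CPM at 20, and 28.7, 40.3 and 39.9 CPM at 40, overlapping DMSO throughout. RFC5 was at 53.0, 62.8 and 58.3 CPM at time point 0, 57.4, 55.7 and 56.2 CPM at 20, and 62.0, 63.2 and 65.1 CPM at 40 with DMSO and at 55.1, 55.1 and 65.0 CPM at time point 0, 52.4, 76.0 and 71.5 CPM at 20, and 55.8, 62.4 and 64.4 CPM at 40 with etoposide. At 20 its log2 difference between the arms was 0.23 (SE 0.13, 95% interval -0.04 to 0.49, edgeR adjusted p = 1), with replicate 1 lower and replicates 2 and 3 higher with etoposide. It was 0.37 without etoposide replicate 1 and 0.13 without etoposide replicate 2.

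RPA coats single-stranded DNA, FEN1 trims the flaps of Okazaki fragments and LIG1 seals them. FEN1 was the most abundant of these 5 genes by CPM, at 148, 165 and 178 CPM at time point 0, 139.9, 176 and 161 CPM at 20, and 134, 150.4 and 141 CPM at 40 with DMSO. Its etoposide libraries held 128, 136 and 146 CPM at time point 0, 139.7, 152 and 143 CPM at 20, and 128, 156 and 143 CPM at 40. At 0 all etoposide libraries lay below all DMSO libraries (2.34% of all genes), and at 40 the arms overlapped. Averaged over the 3 time points the log2 difference of FEN1 was -0.15 (SE 0.07, 95% interval -0.29 to -0.01, edgeR adjusted p = 0.9999). RPA3, the smallest RPA subunit, was the least abundant, at 24.3, 23.3 and 22.4 CPM at time point 0, 20.1, 23.7 and 19.4 CPM at 20, and 40.0, 21.2 and 18.6 CPM at 40 with DMSO. With etoposide RPA3 was at 23.2, 24.5 and 21.2 CPM at time point 0, 21.9, 31.2 and 22.4 CPM at 20, and 18.6, 20.4 and 20.2 CPM at 40. The DMSO library of replicate 1 at 40 was the highest of all 18, at 40.0 CPM against 21.2 and 18.6 CPM in replicates 2 and 3. The log2 difference between the arms at 40 was -0.44 (SE 0.23, edgeR adjusted p = 1), was -0.003 without that library, and turned to 0.04 without replicate 1 in all groups.

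Ribonucleotide reductase makes deoxyribonucleotides and TYMS makes thymidylate. RRM2, the regulated small subunit, had the highest mean CPM of all 44 genes, at 319, 293 and 345 CPM at time point 0, 304, 296 and 303 CPM at 20, and 332, 277 and 337 CPM at 40 with DMSO. The etoposide values of RRM2 were 269.5, 274 and 326 CPM at time point 0, 269, 342 and 339 CPM at 20, and 264, 284 and 333 CPM at 40. The arms overlapped at 0, 20 and 40. TYMS was at 198, 192 and 201 CPM at time point 0, 172, 193 and 182 CPM at 20, and 206, 176 and 188 CPM at 40 with DMSO. With etoposide TYMS was at 174, 165 and 176 CPM at time point 0, 168, 186 and 188 CPM at 20, and 169.5, 193 and 192 CPM at 40. The 3 etoposide libraries of TYMS at 0 were below the 3 DMSO libraries (2.34% of all genes), and those of 20 and 40 overlapped with DMSO.

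E2F1, the transcription factor of the list, was at 52.8, 59.8 and 59.7 CPM at time point 0, 47.9, 60.1 and 60.9 CPM at 20, and 46.4, 51.8 and 54.5 CPM at 40 with DMSO. With etoposide E2F1 was at 46.8, 47.3 and 54.9 CPM at time point 0, 55.7, 50.8 and 60.3 CPM at 20, and 53.0, 62.0 and 62.4 CPM at 40. Within every replicate number E2F1 was lower at 40 than at 0 with DMSO and higher with etoposide (1.8% of all genes). The change from 0 to 40 with etoposide minus that with DMSO was 0.45 (SE 0.18, 95% interval 0.07 to 0.84), with an edgeR adjusted p of 0.9997 and 0.992 with the block.

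**Figure D2:**
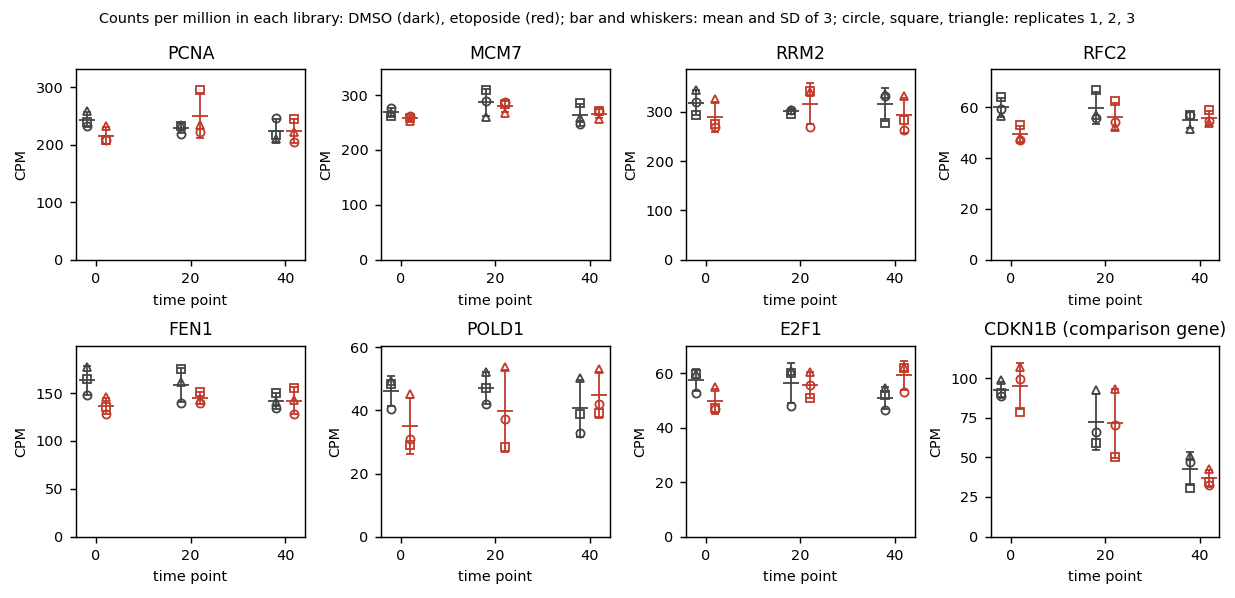
CPM in each library of PCNA, MCM7, RRM2, RFC2, FEN1, POLD1 and E2F1 and, for comparison, CDKN1B, a CDK inhibitor gene outside the list, by time point (dark: DMSO; red: etoposide; symbols: replicates; bar and whiskers: mean and SD of 3). The replication genes stay at similar levels while CDKN1B runs from 92.4 to 42.9 CPM with DMSO and from 95.1 to 36.7 CPM with etoposide.

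Other genes fell over this time. From 0 to 40 with DMSO, 60 of the 14186 genes passed (0.423%), all lower, and 29 with etoposide (0.204%), all lower. The hormone gene ADM fell from 135 to 19.8 CPM with DMSO (log2 -2.76, SE 0.16, edgeR adjusted p = 1.57e-07), and MYC fell from 59.7 to 14.7 CPM (log2 -2.02, SE 0.26, edgeR adjusted p = 0.000692). With the replicate number as a block the counts were 174 (1.23%) and 143 (1.01%), and still 0 of the 44 replication genes. Against shares this small, 0 of 44 is near the background.

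From 0 to 40 with DMSO, 24 replication genes had a log2 change below 0 and 20 above, with a median of -0.02, while over all genes the median was 0.00 and 48.8% were below 0. No replication gene had an unadjusted edgeR p below 0.05, against 4.05% of all genes; with the block CDT1, GINS4 and FEN1 did, against 8.04%. CDT1, the licensing factor, had the most negative value, -0.38 (SE 0.21, 95% interval -0.83 to 0.07, edgeR adjusted p = 1, and 0.284 with the block). GINS4, a subunit of the GINS complex, was at 0.25 (SE 0.15, edgeR adjusted p = 1) and FEN1 at -0.20 (SE 0.11, edgeR adjusted p = 1), or -0.12 without DMSO time point 0 replicate 3. CDT1, RFC2, FEN1 and E2F1 were lower in every same-numbered pair, against 15.6% of all genes, and MCM4, GINS3, GINS4, RFC5 and LIG1 were higher in every pair, against 11.5%. Without DMSO time point 0 replicate 3, 15 genes were below 0, and 10 without all of replicate 3. The 3 libraries of a group overlapped those of the other for every gene but GINS3, higher at 40 (1.59% of all genes); none was lower without overlap (4.63%).

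From 0 to 40 with etoposide, 14 replication genes were below 0 and 30 above, with a median of 0.09, against 49.1% below 0 and a median of 0.00 over all genes. Scaled by 83 ribosomal protein genes instead of TMM, 24 were below 0 (71.1% of all genes). The median was then 0.00, as the median of all genes moved to -0.08. E2F1 alone had an unadjusted edgeR p below 0.05 (3.02% of all genes did): it was 59.2 CPM at 40 and 49.7 CPM at 0, a log2 change of 0.28 (SE 0.13, edgeR adjusted p = 1, and 0.405 with the block). With the block GINS4, POLD1 and RFC2 joined it (6.44% of all genes). POLD1, the catalytic subunit of polymerase delta, was at 0.39 (SE 0.23, edgeR adjusted p = 1, and 0.325 with the block), at 0.61 without etoposide time point 0 replicate 3 and at 0.25 without etoposide time point 40 replicate 3. RFC2, a clamp loader subunit, was at 0.21 (SE 0.11, edgeR adjusted p = 1), or 0.13 with ribosomal protein factors. Higher in every same-numbered pair were 13 genes (13.7% of all genes), 6 of them of the helicase (MCM2, MCM4, MCM5, MCM6, MCM7 and GINS4), and lower in every pair were ORC2, ORC5 and RPA3 (21.7%). RFC2 was higher (1.97%) and RPA3 lower (5.85%) without overlap of the libraries. The median was 0.00, 0.06 and 0.15 without replicate 1, 2 or 3 of etoposide time point 0 and 0.03 without etoposide time point 40 replicate 3, and 7 genes were below 0 without etoposide time point 40 replicate 1. The etoposide time point 0 group also enters the comparison of the arms at time point 0.

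**Figure D3:**
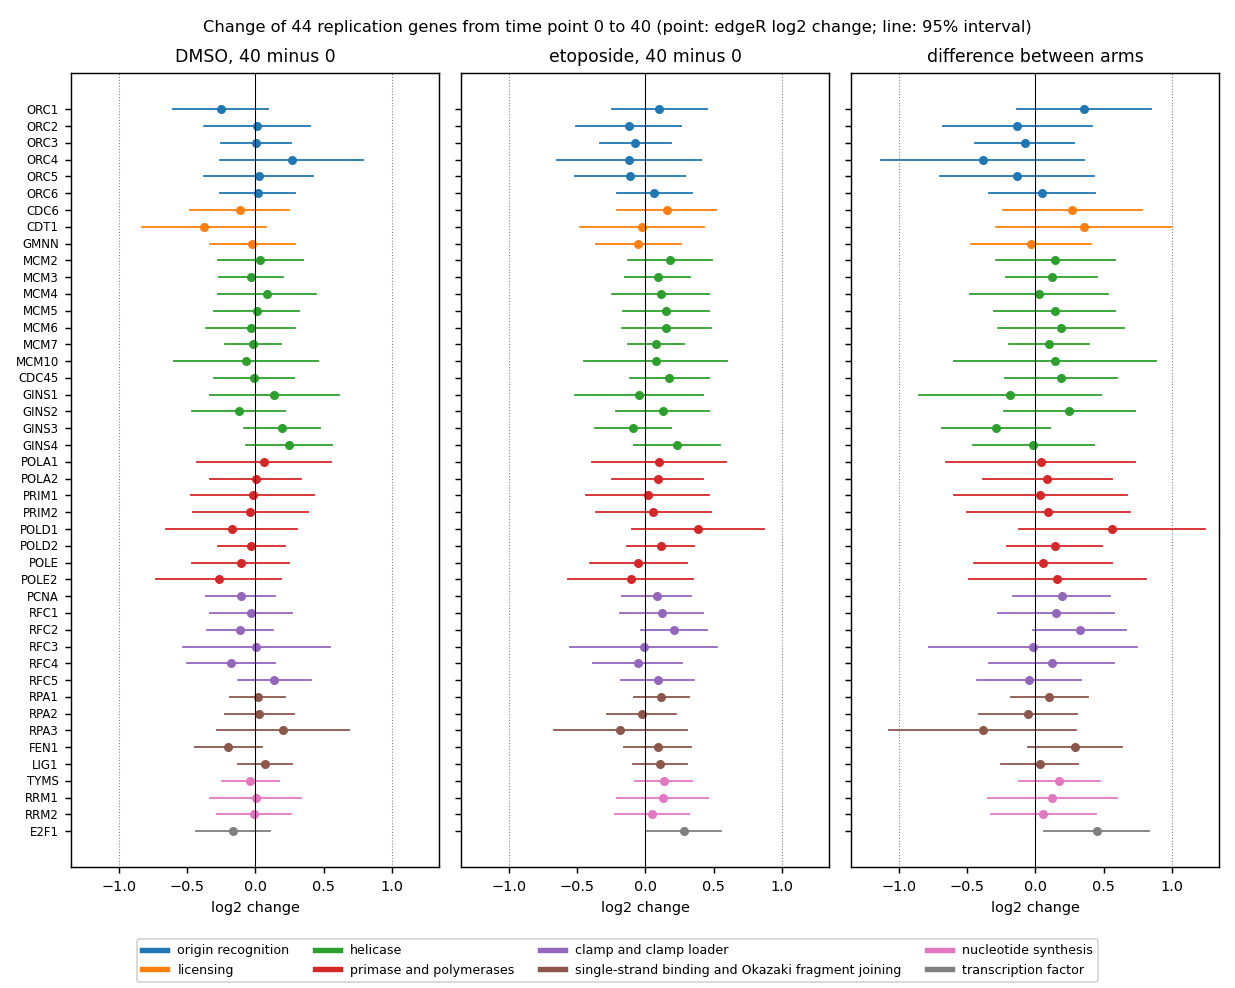
Log2 change of each replication gene from time point 0 to 40 with DMSO, with etoposide, and the difference between the arms (points: edgeR estimate; lines: 95% interval; colours: role; dotted lines at -1 and 1). All 44 intervals lie within -1 and 1 in both arms, and 41 do for the difference (58.9% of all genes).

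At time point 0, 37 of the 44 replication genes were lower with etoposide than with DMSO in the edgeR estimate, against 52.4% of all genes. Their median log2 difference was -0.12, against -0.01 over all genes. Scaled by ribosomal protein genes only 17 were lower, against 24% of all genes. That scaling moved the median of all genes by 0.13; relative to it, the median of the replication genes was -0.11 with TMM and -0.10 with ribosomal protein genes. Scaled by library size alone 33 were lower (45.6% of all genes), and with upper quartile factors 34 (46.1%). None of the 44 passed the edgeR test, as 0% of the genes tested did. The licensing genes CDC6, CDT1 and GMNN, the 6 clamp and clamp loader genes and TYMS, RRM1 and RRM2 all had values below 0 with TMM, and the origin recognition genes had 3 below and 3 above. An unadjusted p below 0.05 was given to RFC2, FEN1 and TYMS (2.62% of all genes), and with the block to these and CDC6, GINS2, POLD1 and E2F1 (6.29%), where the smallest adjusted p was 0.755. Without overlap between the libraries, ORC5, GMNN, MCM7, PCNA, RFC2, FEN1 and TYMS were lower (2.34% of all genes) and 0 were higher (4.03%). In every same-numbered pair 18 were lower (14.8%) and 2, ORC2 and GINS4, were higher (19.9%).

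The largest difference belonged to POLD1, at 35.1 ± 8.77 CPM with etoposide and 46.1 ± 4.78 CPM with DMSO (SD, n = 3; log2 -0.42, SE 0.23, 95% interval -0.90 to 0.06). RFC2 was at 49.3 and 60.05 CPM (log2 -0.31, SE 0.11, edgeR adjusted p = 0.9999), FEN1 at 136.7 and 163.5 CPM (log2 -0.29, SE 0.12, edgeR adjusted p = 0.9999) and TYMS at 171.8 and 196.7 CPM (log2 -0.22, SE 0.10, edgeR adjusted p = 0.9999). With ribosomal protein factors RFC2, FEN1 and TYMS were at -0.18, -0.16 and -0.09. The 95% interval stayed above -1 for 44 of 44 genes (82.2% of all genes) and above -0.5 for 25 (49.7%). Leaving out single libraries moved the median between -0.19 and -0.03: it was -0.17 without DMSO replicate 1, -0.06 without etoposide replicate 1, -0.03 without DMSO replicate 3 and -0.19 without etoposide replicate 3. The summed level of the 12 G2 and mitosis genes was 1649 to 1696 CPM in the etoposide libraries and 1680 to 1847 CPM in the DMSO libraries of this time point, and its part in the result was not tested.

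**Figure D4:**
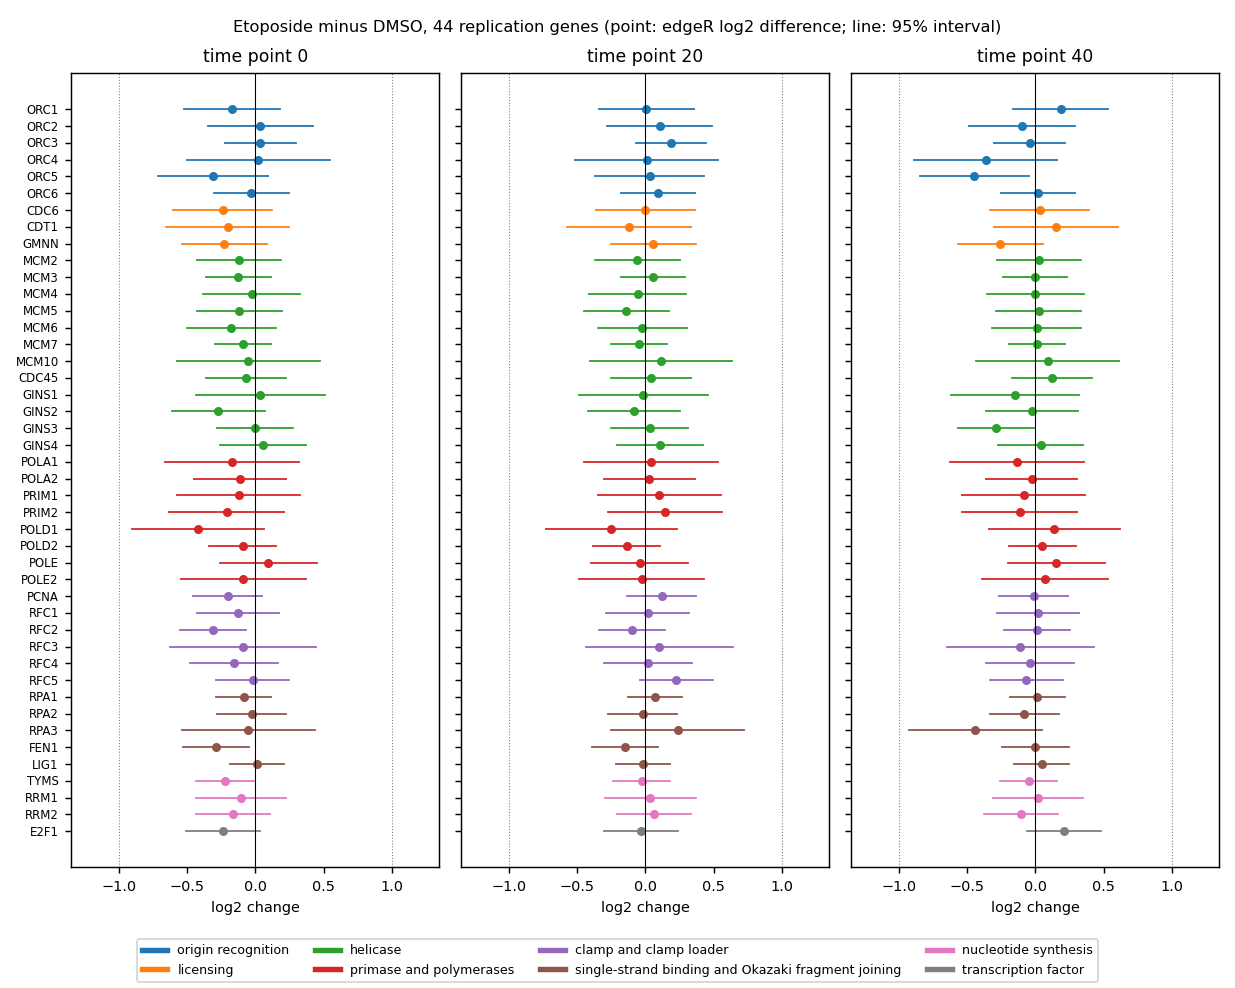
Log2 difference of each replication gene between etoposide and DMSO at time points 0, 20 and 40 (points: edgeR estimate; lines: 95% interval; colours: role; dotted lines at -1 and 1). At 0, 37 points lie left of 0 (17 with ribosomal protein scaling), at 20 there are 19 (7) and at 40 there are 23 (17). Of all genes, 52.4%, 50.3% and 51.8% were below 0 at these time points (24%, 38.7% and 43.9% with ribosomal protein scaling).

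The 44 genes together took a small share of each library. At time point 0 with DMSO it was 0.383% (exact Clopper-Pearson 95% interval 0.379% to 0.387%), 0.381% (0.377% to 0.385%) and 0.431% (0.427% to 0.435%) in replicates 1, 2 and 3. With etoposide it was 0.349% (0.346% to 0.353%), 0.362% (0.359% to 0.366%) and 0.407% (0.404% to 0.411%). The share was lower with etoposide in each of the 3 pairs, although the groups overlapped, and the intervals cover counting error only. At 20 and 40 the shares ran from 0.363% to 0.424% and the pairs did not share a direction.

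**Figure D5:**
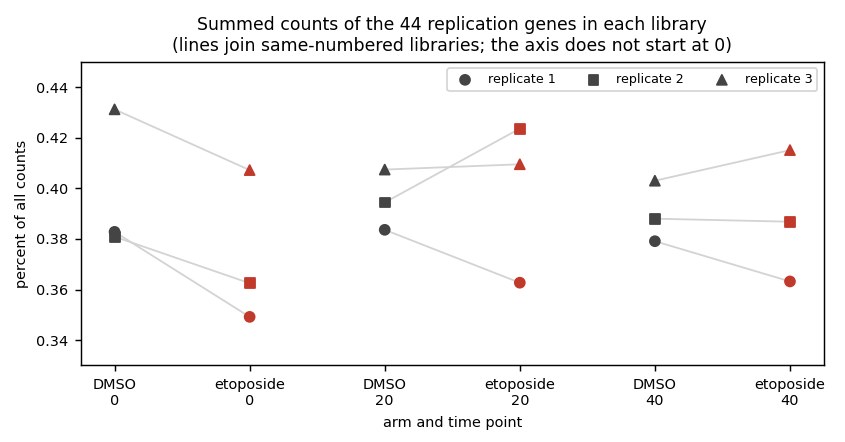
Summed counts of the 44 replication genes as a percent of all counts in each library, with lines joining same-numbered libraries of the arms. At time point 0 each line runs down from DMSO to etoposide, and replicate 3 lies highest.

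At time point 20, 19 replication genes were lower with etoposide and 25 higher, against 50.3% lower over all genes, and 0 had an unadjusted edgeR p below 0.05 (0.754% of all genes). The number lower was 29 without etoposide time point 20 replicate 2 and 10 without replicate 1 of that group. With ribosomal protein factors it was 7 (38.7% of all genes). At time point 40, 23 were lower and 21 higher, against 51.8% lower, and ORC5 and GINS3 had an unadjusted p below 0.05 (1.01%). Without etoposide time point 40 replicate 1, 15 were lower, and 13 without all of replicate 1. With the block ORC4 and RPA3 joined them (3.63%). Averaged over the time points 34 were lower, against 54.2% of all genes, and ORC5 and FEN1 had an unadjusted p below 0.05 (1.8%); ORC5 was at -0.24 (SE 0.11, edgeR adjusted p = 0.9999), or -0.15 without DMSO time point 40 replicate 1, and RFC2 at -0.13 (SE 0.07, edgeR adjusted p = 0.9999). With ribosomal protein factors 10 were lower in that average (26.7% of all genes), and ORC5, FEN1 and RFC2 were at -0.16, -0.07 and -0.06. All 44 intervals of the average lay within -0.5 and 0.5, against 68.1% of all genes.

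No replication gene passed the edgeR test from 0 to 20 in either arm, as 0% of the genes tested did. With DMSO 24 replication genes were below 0 (52% of all genes), the median was -0.02, and 0 had an unadjusted edgeR p below 0.05 (1.4%). Without DMSO time point 0 replicate 3, 12 were below 0. The smallest p belonged to ORC5, ORC3 and TYMS, with log2 changes of -0.26 (SE 0.19), -0.16 (SE 0.12) and -0.12 (SE 0.10) and an edgeR adjusted p of 0.9999 each. ORC3 was at -0.10 without DMSO time point 0 replicate 2, and TYMS at -0.06 without DMSO time point 20 replicate 1. With etoposide 5 were below 0 (51.5% of all genes) and the median was 0.11. With ribosomal protein factors 23 were below 0 (79.4% of all genes). Relative to the median of all genes, theirs was 0.12 with TMM and 0.10 with ribosomal protein factors. The count also moved with single etoposide libraries. It was 12 without replicate 2 or 3 of time point 20 and 9 without replicate 2 of time point 0. It was 3 without replicate 1 of time point 20 or replicate 3 of time point 0, and 14 without all of replicate 2. The median was 0.07 without etoposide time point 20 replicate 2 and 0.05 without etoposide time point 0 replicate 1. PCNA was at 0.23 (SE 0.12), GMNN at 0.26 (SE 0.15) and RFC2 at 0.20 (SE 0.11), each with an edgeR adjusted p of 1, and 0 genes had an unadjusted p below 0.05 (1.02%); with the block PCNA and RFC2 did (2.74%). Without etoposide time point 20 replicate 2, PCNA, GMNN and RFC2 were at 0.10, 0.09 and 0.13, and with ribosomal protein factors at 0.10, 0.14 and 0.10.

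Subtracting the DMSO change from the etoposide change gave a value below 0 for 7 genes from 0 to 20 (48% of all genes) and for 12 from 0 to 40 (50.9%). The medians were 0.15 and 0.10. With ribosomal protein factors 12 and 20 were below 0 (66.7% and 67.7% of all genes), with medians of 0.07 and 0.00. No difference passed the edgeR test (0% of all genes in both), and E2F1 alone had an unadjusted p below 0.05, from 0 to 40 (1.33% of all genes; 0 genes from 0 to 20, 0.959%). From 0 to 20 the smallest p belonged to PCNA at 0.32 (SE 0.17), TYMS at 0.20 (SE 0.14) and GMNN at 0.28 (SE 0.21), and from 0 to 40, after E2F1, to RFC2 at 0.33 (SE 0.16) and FEN1 at 0.29 (SE 0.16), all with an edgeR adjusted p of 0.9997 or more. Without etoposide time point 20 replicate 2, the 0 to 20 values of PCNA and GMNN were 0.19 and 0.12. From 0 to 40 the 95% interval reached beyond -1 or 1 for ORC4, RPA3 and POLD1. From 0 to 20, 16 genes were below 0 without DMSO time point 0 replicate 3, 12 without replicate 2 or 3 of etoposide time point 20, 11 without DMSO time point 20 replicate 1 or etoposide time point 0 replicate 1, and 4 without DMSO time point 0 replicate 1, etoposide time point 20 replicate 1 or etoposide time point 0 replicate 3. From 0 to 40, 23 genes were below 0 without DMSO time point 0 replicate 3, 20 without etoposide time point 40 replicate 3 19 without etoposide time point 0 replicate 1 and 4 without all of replicate 1. The median of the 0 to 40 difference was -0.01 without DMSO time point 0 replicate 3, 0.02 without etoposide time point 0 replicate 1, 0.04 without etoposide time point 40 replicate 3 and 0.19 without etoposide time point 0 replicate 3. These differences, the etoposide changes and the comparison at time point 0 share the etoposide libraries of time point 0, so their directions are not separate evidence.

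Of 58 further genes of the pathway (among them the origin kinase CDC7, polymerase subunits, fork factors, chromatin assembly genes, nucleotide enzymes, E2F and RB genes and G1/S cyclins), 1 passed the test in any comparison. CDKN1B, which encodes the CDK inhibitor p27, was at 88.5, 90.3 and 98.5 CPM at time point 0, 65.8, 59.1 and 92.3 CPM at 20, and 47.1, 30.9 and 50.6 CPM at 40 with DMSO. In the etoposide arm it was at 99.3, 78.8 and 107 CPM at time point 0, 70.2, 50.4 and 93.4 CPM at 20, and 32.8, 34.5 and 42.8 CPM at 40. It fell by 1.34 on the log2 scale from 0 to 40 with etoposide (SE 0.23, edgeR adjusted p = 0.0208), and in the DMSO arm the estimate stood at -1.10 (SE 0.23, adjusted p = 0.0513 by edgeR, or 1.06e-05 when blocked by replicate number). In the 0 to 40 change the arms differed by -0.24 (SE 0.32, edgeR adjusted p = 0.9997). Of the 58, 45 were lower with etoposide at time point 0 (52.4% of all genes), with a median log2 difference of -0.07, but with ribosomal protein factors 20 were lower (24% of all genes) and the median was 0.08.

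Some values are uncertain because reads can be shared with other genes. Of the 44 genes, 17 share exon bases with another gene, 3 of them on the same strand (PRIM1 with NACA, POLD1 with AC020909.1 and FEN1 with FADS2) and 16 with an antisense gene, TYMS and RPA3 included; the strand setting of the counting is not given in the sources used here. PCNA, RPA2, RRM2, TYMS, POLD2, RFC3, RFC5 and FEN1 have annotated pseudogenes, and how reads matching several places were counted is not given either.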

How the data were processed

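RNA-seq counts per gene of 18 libraries were the starting point. The authors deposited them as unnormalised counts, 1 file per library, and per the submitters' processing notes used bcl2fastq, HISAT2 and featureCounts on GRCh38/hg38; the sources used here give no versions, strand setting or treatment of reads with several matches. Gene names came from GENCODE 29 (57447 of 58051 identifiers matched), and 0 columns belonged to no sample. Members and lists were chosen with earlier results of these data known. Genes were filtered with filterByExpr (14186 kept, holding 99.839% of counts), scaled by TMM (0.976 to 1.02) and tested with edgeR 4.0.16's robust quasi-likelihood test in 1 model of the 6 groups, with Benjamini-Hochberg adjustment over all genes and a threshold of 0.05. The code was tested on simulated data. CPM values are counts over the unscaled library total, without the TMM factors, and the overlap and pair statements rest on them. The labels' replicate numbers were taken as pairs. This was because deviations from the group means correlated in all 45 same-numbered pairs (r 0.4111 to 0.8996, minimum 0.1). All 18 libraries also lay closest to their own number. A fit with that block is given beside the main one, by p-values and counts of genes only. All standard errors and intervals of log2 changes are from the main fit without the block. They therefore include the spread between replicate numbers, as do p-values not marked as with the block. Alternatives were other scalings, filters and group sets, limma-voom 3.58.1, DESeq2 1.42.0, left-out libraries and replicate numbers. Values in every library are given for the genes with the highest and lowest mean CPM in each role and the 3 with the smallest p in each comparison; further pathway genes are named where they passed. R 4.3.3, Python 3.11.15 and GRCh38.p14 RefSeq promoters were used.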

Additional observations from a re-analysis of the deposited data

Results flagged for a closer look

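For 3 replication genes, looked for among all 44 after the data were seen, every same-numbered pair moved one way with DMSO and the other way with etoposide, while the difference itself missed the threshold of the edgeR test. Over all 14186 genes, DMSO pairs were all lower and etoposide pairs all higher in 0.832% from 0 to 20 (1 replication gene) and in 1.8% from 0 to 40 (2), and the opposite held in 1.52% and 1.88% (0 replication genes). PCNA from 0 to 20 had log2 changes of -0.08, -0.04 and -0.14 in the DMSO pairs and 0.10, 0.51 and 0.01 in the etoposide pairs, a difference of 0.32 (SE 0.17, edgeR adjusted p = 0.9999 with and without the replicate block). RFC2 from 0 to 40 had -0.06, -0.17 and -0.14 with DMSO and 0.22, 0.16 and 0.17 with etoposide, a difference of 0.33 (SE 0.16, edgeR adjusted p = 0.9997, and 0.992 with the block). E2F1 from 0 to 40 had -0.19, -0.21 and -0.13 with DMSO and 0.18, 0.39 and 0.18 with etoposide, a difference of 0.45 (SE 0.18, edgeR adjusted p = 0.9997, and 0.992 with the block). The 3 genes share the same time point 0 libraries.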

How the results depend on the processing

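The count of replication genes past the threshold was 0 in all 10 comparisons under all 213 combinations of comparison and alternative setting, which included the replicate block, limma-voom, DESeq2 and the left-out libraries and replicate numbers (0 to 0). The block changed no call among the replication genes; of the named genes it changed only CDKN1B from 0 to 40 with DMSO (edgeR adjusted p 0.0513, and 1.06e-05 with the block). Of 30 gene values followed through the alternatives (the 3 genes of smallest p in each comparison), 1 turned its direction, RPA3: etoposide against DMSO at 40 was -0.44 with all libraries, 0.041 without replicate 1 and -0.67 without replicate 3. Medians over the 44 genes also turned. With ribosomal protein factors the median at time point 0 was 0.02 (-0.12 with TMM), as that of all genes moved to 0.12. Those with etoposide from 0 to 20 and 0 to 40 were just below 0, as those of all genes moved to -0.11 and -0.08. The 0 to 40 difference between arms (0.10 with all libraries) was -0.01 without DMSO time point 0 replicate 3. The 5 medians nearest 0 turned in 1 to 8 alternatives each. Over all genes, the 60 calls from 0 to 40 with DMSO became 174 with the block, 108 with DESeq2, 33 with ribosomal protein factors, 22 without the 3 libraries below and 12 when only the groups compared were fitted, with 2 to 86 when a library or replicate number was left out. The 29 calls with etoposide became 143, 68, 18, 25 and 6, with 0 to 36. Leaving out DMSO time point 0 replicate 2, etoposide time point 20 replicate 2 and DMSO time point 40 replicate 1 together was chosen after seeing the data. It left 37 replication genes lower with etoposide at 0 (median -0.15) and 12 below 0 from 0 to 20 with etoposide (median 0.07). With 3 libraries a group and standard errors of 0.09 to 0.25 in the fit without the block, a change well within those errors was not detectable in that fit. Changes several times their error could also miss the threshold, as CDKN1B did from 0 to 40 with DMSO (edgeR adjusted p = 0.0513). The E2F1 difference between arms from 0 to 40 missed it too, at 0.45 (SE 0.18, edgeR adjusted p = 0.9997). A count of 0 thus does not show that no replication gene changed.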
